A study of Mus musculus with 12 samples.

Results

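The transcripts of 9 transient receptor potential (TRP) channel genes were examined in sensory neuronal enriched fractions of trigeminal ganglia (TG) and dorsal root ganglia (DRG) of the mouse. The genes were Trpm8, Trpv1, Trpa1, Trpm3, Trpm2, Trpv2, Trpv4, Trpc5 and Trpm4, chosen by name for reported roles in sensing temperature or irritants, and they are 9 of the 22609 genes counted. Each was matched by its symbol in every count file, and all 9 passed the filter on low counts in the comparison of ganglia.

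RNA came from 12 libraries, with 3 for each combination of sex and ganglion. All mice were naive wild-type animals of strain C57BL (C57BL/6J in the methods of the study), whose labels give an age of 3 to 4 months, while the methods of the study give a younger range. Females were taken in the estrous phase, ganglia were dissociated, and the neuronal fraction was collected by density on a Percoll gradient. The DRG were from lumbar levels only, per the methods of the study. The sources used here do not give how many animals entered a library or whether TG and DRG libraries of 1 number came from the same animals, so p-values measure the spread between these libraries, which may be in part technical. Reads assigned to genes ran from 7511765 to 15396090 per library. Levels are given in CPM, a gene's count relative to all reads in genes of its library, after TMM scaling, which corrects the library totals for differences in composition, and 3 counts correspond to 0.195 to 0.399 CPM. A pair of libraries stood apart from the rest in a principal component analysis of log2 CPM. Female DRG 1, the shallowest library and the one with the most reads outside genes (50.4%), lay at -163.55 on the first component where the others lay between -26.14 and 40.4, and female TG 3 lay at -125.84 on the third, where the others lay between -10.45 and 38.41.

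TRP channels are cation channels of the plasma membrane that open to chemical ligands, temperature, lipids or intracellular calcium, and the current they carry depolarizes the nerve ending. In sensory ganglia TRPM8 is known as the receptor for cold and menthol, TRPV1 for noxious heat and capsaicin, and TRPA1 for electrophilic irritants such as mustard oil. TRPM3 and TRPM2 contribute to the sensing of warmth and heat, TRPC5 to the sensing of cold, TRPV2 and TRPV4 respond to several physical stimuli in expressed form, and TRPM4 is a calcium-activated channel that carries sodium rather than calcium.

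The neuronal identity of the fractions was checked against markers. All 10 neuronal genes of the list were counted in every library, and their summed level was 5274 to 7569 CPM in TG and 4937 to 8867 CPM in DRG. Transcripts of other cells were present as well. Satellite glia and Schwann cell genes summed to 5566 to 8325 CPM in TG and 4476 to 8132 in DRG, fibroblast genes to 618 to 1676 and 1027 to 2191, endothelial genes to 318 to 623 and 199 to 647, and macrophage genes to 174 to 560 and 184 to 444. The ranges of the ganglia overlapped for each of these lists, and none of their genes passed the test between ganglia at an adjusted p under 0.05. The satellite glia and Schwann cell sum exceeded the neuronal sum in female DRG 1 (8132 against 4937 CPM) and female DRG 2 (6770 against 5125). It also did so in female TG 1 (8279 against 5340), female TG 2 (8325 against 5274) and male TG 3 (6221 against 5376). In the other libraries the neuronal sum was the higher. Of these markers, only Aif1 of the macrophages was listed at 0 in any library. For the 2 genes with the smallest p in each list the log2 fold changes were -0.47 for Tubb3 and -0.37 for Prph among the neuronal genes, 0.39 for Prx and -0.23 for Pmp22 in glia, 0.56 for C1qb and 0.64 for Cx3cr1 in macrophages, 0.48 for Kdr and 0.46 for Flt1 in endothelium, and -1.23 for Col3a1 and -0.95 for Col1a1 in fibroblasts.

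Trpm8 and Trpv1 were the members that passed the test between ganglia, in opposite directions, and the sequence before their annotated starts is shown for orientation. Both are taken from RefSeq on build GRCm38.p6, on the plus strand, and run 5′ to 3′ over the 250 bases that end just before the start. The Trpm8 stretch is chr1:88306485-88306734 and the Trpv1 stretch is chr11:73233899-73234148. Capitals mark matches, on either strand, to 4 short motifs, namely the TATA box (TATAAA), the CAAT box (CCAAT, read as ATTGG on the other strand), the GC box (GGGCGG) and the core letters bound by RUNX factors (TGTGGT).
Trpm8: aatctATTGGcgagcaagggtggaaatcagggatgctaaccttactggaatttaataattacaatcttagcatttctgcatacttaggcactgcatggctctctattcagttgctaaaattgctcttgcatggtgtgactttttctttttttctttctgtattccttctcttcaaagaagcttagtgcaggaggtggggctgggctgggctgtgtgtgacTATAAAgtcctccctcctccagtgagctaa
Trpv1: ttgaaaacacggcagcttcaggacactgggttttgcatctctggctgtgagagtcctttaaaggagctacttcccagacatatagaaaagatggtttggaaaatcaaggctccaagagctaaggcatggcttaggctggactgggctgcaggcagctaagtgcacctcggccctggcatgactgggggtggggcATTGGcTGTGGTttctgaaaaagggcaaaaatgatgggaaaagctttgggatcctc

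The Trpm8 stretch held a TATA box beginning 30 bases before the start and a reversed CAAT box 245 bases before it. In the Trpv1 stretch a reversed CAAT box lay 56 bases and a RUNX core 50 bases before the start, and no TATA box was found. No capitals overlap between motifs. Over the windows of the same length of 27025 genes, 1 promoter a gene, 13% held TATAAA, 34.5% CCAAT, 32.9% GGGCGG and 14.2% TGTGGT. The Trpm8 window had 42.8% G and C and 1 CpG and the Trpv1 window 50.8% and 2 CpGs, against medians of 52% and 6 over all windows. Of the 9 members 7 had an entry in the table, and Trpa1 and Trpm4 had none. These letters are a description, and no binding was measured.

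Trpm8 was the member with the highest level in TG and the largest difference between ganglia. The gene (ENSMUSG00000036251.9) lies on mm9 chromosome 1, 90174236 to 90285868, on the plus strand. In DRG its levels were 47.0, 70.8 and 60.5 CPM in the female and 59.2, 49.7 and 58.7 CPM in the male libraries. In TG they were 326, 239 and 392 CPM in females and 395, 462 and 381 CPM in males. Every TG library stood above every DRG library. Trpm8 averaged 366 ± 75.9 CPM (SD, n = 6) in TG against 57.6 ± 8.5 CPM (SD, n = 6) in DRG. The fitted difference was 6.3-fold, or 2.65 on the log2 scale (SE 0.18, adjusted p = 1.39e-07 by edgeR). Trpm8 was the third gene of 14829 by p and the sixth largest by size among the 93 genes called higher in TG. It was called in each sex alone, at a log2 fold change of 2.42 in females (SE 0.26, adjusted p = 0.000125) and 2.88 in males (SE 0.26, adjusted p = 1.32e-05). In bulk fractions, fewer cells of a type and less RNA per cell cannot be told apart. Of the Trpm8 exons 388 bases overlap an annotated transcript of the opposite strand, 4930453O03Rik, which the files do not count, and the strand setting of the counting is not given in the sources used here.

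Trpv1 differed in the opposite direction and by much less. The gene (ENSMUSG00000005952.9) lies on chromosome 11, 73047794 to 73074744. Its levels in DRG were 134, 129 and 171 CPM in females and 83.4, 106 and 137 CPM in males, and in TG 71.4, 90.7 and 88.4 CPM in females and 68.5, 61.0 and 66.9 CPM in males. Within each sex every TG library was below every DRG library, while across the sexes the lowest DRG library, male DRG 1, fell among the female TG libraries. Trpv1 averaged 74.5 ± 12.2 CPM (SD, n = 6) in TG against 127 ± 29.8 CPM (SD, n = 6) in DRG. This was 1.7-fold lower in TG, at -0.76 on the log2 scale (SE 0.17, adjusted p = 0.0425 by edgeR). In the contrasts for each sex from the 12-library model, the log2 fold changes were -0.79 (SE 0.25) in females and -0.73 (SE 0.25) in males. Neither passed the threshold (adjusted p = 0.40 and 0.611). The call was close to the threshold. It was lost in 10 of the 12 fits that left out 1 library, in all except those without female TG 3 (adjusted p = 0.038) or male DRG 1 (0.0417), with an adjusted p of up to 0.177 without female TG 1 and log2 fold changes between -0.84 and -0.66.

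The 2 called members are to be read against the background of this comparison. Of 14829 genes tested, 93 (0.627%) were called higher in TG and 50 (0.337%) higher in DRG. Ranges that did not overlap between the 6 TG and 6 DRG libraries were seen in 202 genes, or 1.36%, and in 1 member, Trpm8. For ranges of 3 against 3 libraries, within 1 sex or between the sexes, the share over all genes was not counted. Gaps of that kind are a description only. The median log2 fold change was 0.00 over the members and -0.01 over all genes tested.

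**Figure D1:**
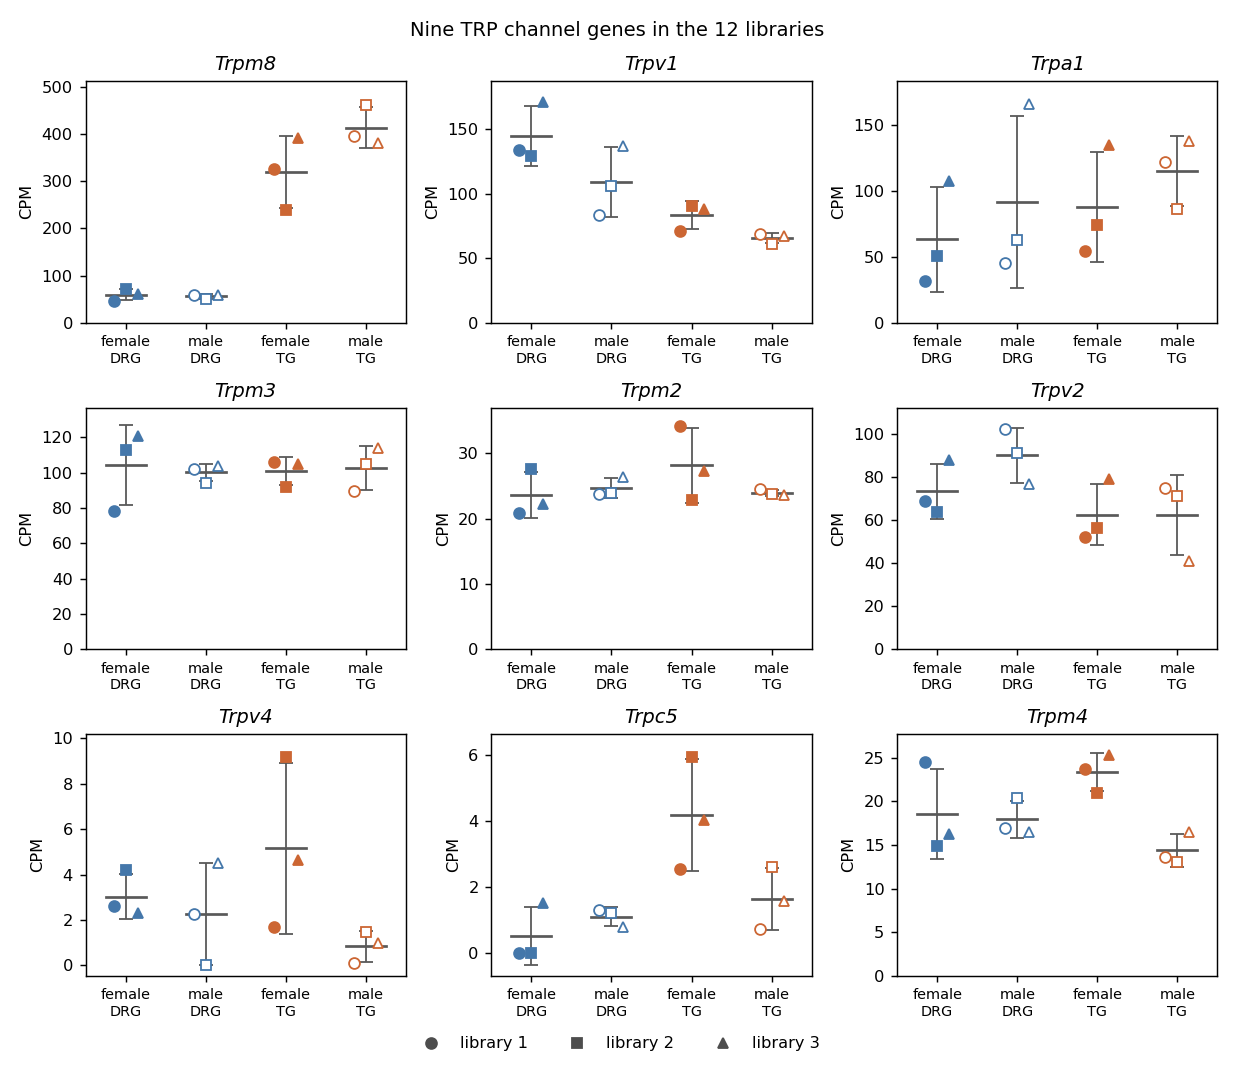
Each panel shows 1 TRP gene, with CPM after TMM scaling on the y axis and the 4 groups on the x axis. Symbols are single libraries (filled for female, open for male, shape for the library number) and bars are the mean ± SD of 3 libraries. Trpm8 stands at 239 to 462 CPM in TG and 47.0 to 70.8 in DRG, and Trpa1 is highest in the library numbered 3 of each group.

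Trpa1 varied widely within the groups. The gene (ENSMUSG00000032769.4) lies on chromosome 1, 14862729 to 14908943, on the minus strand. Levels were 31.4, 50.9 and 108 CPM in female DRG and 45.3, 63.1 and 166 CPM in male DRG. In TG they were 54.5, 74.5 and 135 CPM in females and 122, 86.3 and 138 CPM in males. The library numbered 3 was the highest in all 4 groups, at 108 CPM or more, and the other DRG libraries did not exceed 63.1 CPM. Among all genes tested 6.27% had their highest value in library 3 in all 4 groups, and Trpa1 was the only member of the 9 to do so. Trpa1 averaged 102 ± 34.9 CPM (SD, n = 6) in TG against 77.6 ± 50.9 CPM (SD, n = 6) in DRG. The difference was 0.40 on the log2 scale (SE 0.33, adjusted p = 0.883), and the ranges overlapped. In the 8 libraries numbered 1 and 2, a choice made after the values were seen, the log2 fold change was 0.80 (adjusted p = 0.0378), and 2.44% of all genes were called higher in TG there. This was the only one of 22 alternatives in which Trpa1 passed. Without female DRG 1 and female TG 3 together it was 0.02 (adjusted p = 0.996), and with single libraries left out it ran from 0.18 to 0.78.

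Trpm3 and Trpm2, channels of warmth and heat sensing, had close means in the ganglia. Trpm3 (chromosome 19, 22213609 to 23064374) ranged from 89.4 to 114 CPM in TG with a median of 105, and from 78.5 to 121 CPM in DRG with a median of 103. Its log2 fold change was 0.00 (SE 0.17), and 1.96 standard errors to either side spanned ratios of 0.798 to 1.25, so that a TG level more than 1.25 times the DRG level lay outside the interval. Trpm2 (chromosome 10, 77370467 to 77433308) ranged from 22.9 to 34.2 CPM in TG, median 24.1, and from 20.9 to 27.6 CPM in DRG, median 23.8. Its log2 fold change was 0.10 (SE 0.20, adjusted p = 0.985), with an interval of 0.815 to 1.42 for the ratio. Trpm4 (chromosome 7, 52558002 to 52589150) had 13.0 to 25.3 CPM in TG, median 18.7, and 14.9 to 24.5 CPM in DRG, median 16.7. The log2 fold change of Trpm4 was 0.00 (SE 0.23), with an interval of 0.73 to 1.37. The ranges of all 3 genes overlapped between ganglia.

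Trpv2, a channel opened by strong heat and by stretch when expressed in cell lines, lies on chromosome 11 as Trpv1 does, at 62387988 to 62414017. It ranged from 41.0 to 78.8 CPM in TG with a median of 63.7, and from 63.5 to 102 CPM in DRG with a median of 82.2. In males the highest of the TG libraries, at 74.6 CPM, was below the lowest of the DRG libraries, at 76.7 CPM, while in females the ranges overlapped. The log2 fold change was -0.38 (SE 0.20, adjusted p = 0.622), and the interval of the ratio ran from 0.588 to 1. The difference did not pass the test.

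Trpv4 and Trpc5 were near the limit of counting. Trpv4 (chromosome 5, 115072161 to 115108430) had 22, 47 and 27 counts in female DRG, 24, 0 and 57 in male DRG, 19, 114 and 59 in female TG and 1, 21 and 10 in male TG. Mean levels were 3.00 ± 3.39 CPM (SD, n = 6) in TG against 2.64 ± 1.62 CPM (SD, n = 6) in DRG. The fitted log2 fold change of Trpv4, which averages the contrasts within the sexes on the log scale, had the opposite sign to the difference of these means, at -0.32 (SE 0.88, adjusted p = 0.994), with 0.77 (SE 1.25) in females and -1.40 (SE 1.29) in males. Trpc5 (chromosome X, 140816214 to 141122723) had 0, 0 and 18 counts in female DRG, 14, 13 and 10 in male DRG, 29, 74 and 51 in female TG and 8, 38 and 16 in male TG. All female TG libraries were above all female DRG libraries for Trpc5, and the male ranges overlapped. The log2 fold change of Trpc5 was 1.78 (SE 1.05, adjusted p = 0.718), and the interval of the ratio, 0.826 to 14.3, includes 1. Without female DRG 3, the only female DRG library with a Trpc5 count, the log2 fold change was 4.58 (adjusted p = 0.0946), and without any other single library it ran from 1.49 to 1.95.

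**Figure D2:**
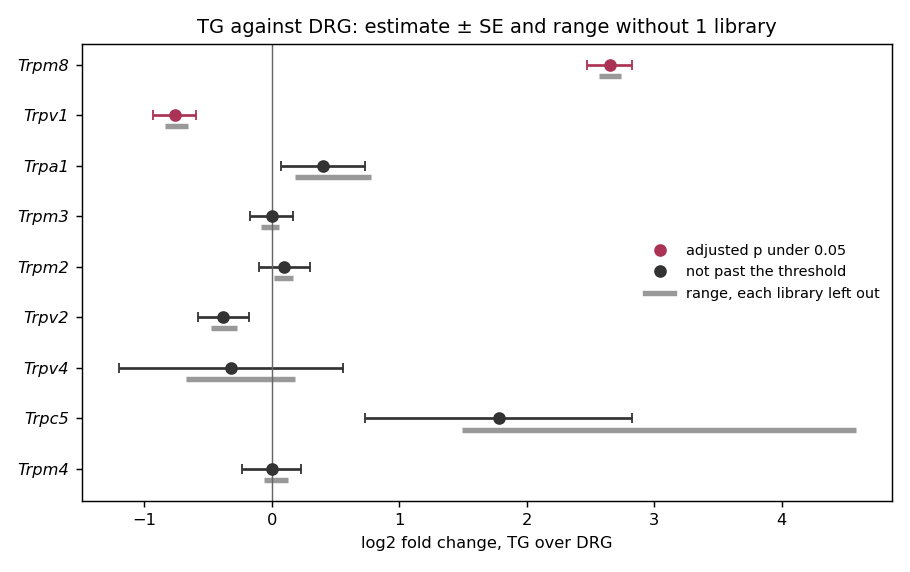
The x axis gives the log2 fold change of TG over DRG for the 9 genes on the y axis. Points with bars are the estimate ± SE from the 12-library model, and grey bars are the range over the 12 fits that each left out 1 library. Trpm8 lies at 2.65 and Trpv1 at -0.76, and the other 7 did not pass the threshold.

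To compare the genes with one another, CPM was divided by the length of the longest coding transcript. In DRG the order of mean CPM per kilobase was Trpv1 (37.7), Trpv2 (28), Trpa1 (18.2), Trpm3 (15.1), Trpm8 (13.9), Trpm4 (4.26), Trpm2 (3.31), Trpv4 (0.816) and Trpc5 (0.194). Each of the first 4 overlapped its lower neighbour in range, whereas Trpm8 was above Trpm4 and Trpm2 above Trpv4 in every library without overlap. In TG the order was Trpm8 (88.3), Trpa1 (23.9), Trpv1 (22.2), Trpv2 (21.4), Trpm3 (15.1), Trpm4 (4.39), Trpm2 (3.57), Trpv4 (0.929) and Trpc5 (0.699). Only the gaps below Trpm8, Trpm3 and Trpm2 were without overlap in TG, so the order of Trpa1, Trpv1 and Trpv2 there is not resolved. With the length of all exons merged in place of the longest transcript, Trpa1 and Trpv2 were level in DRG, and Trpm2 and Trpv4 overlapped in TG.

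Among 20303 genes with a transcript length, Trpm8 ranked 689th in TG and 4713th in DRG by mean CPM per kilobase. Trpv1 ranked 3194th in TG and 1961st in DRG. Trpm3 took nearly the same place in both, 4391st and 4427th, and Trpc5 was the lowest member, at 12796th and 14218th.

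The make-up of the members differed between the ganglia. Of the summed level per kilobase of the 9 genes, Trpm8 held 39.1 to 56.5% in TG (median 50%) and 9.78 to 14.9% in DRG (median 10.8%). Trpv1 held 9.2 to 18.3% in TG (median 11.8%) and 23 to 38.7% in DRG (median 30.8%), and Trpv2 held 7.7 to 13.5% and 18.2 to 32.4%. The ranges did not overlap for these genes or for Trpm3, which held 6.98 to 10% in TG and 10.6 to 14.6% in DRG although its CPM values overlapped. Shares sum to a fixed total, so a high Trpm8 lowers the others. The sum itself was 147 to 207 CPM per kilobase in TG and 103 to 147 in DRG.

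The ratio of Trpm8 to Trpv1 within a library does not depend on scaling. Per kilobase it was 2.14 to 6.14 in TG, with a median of 4.16, and 0.283 to 0.576 in DRG, with a median of 0.364, an 11.4-fold difference of medians. Trpm8 thus exceeded Trpv1 in all 6 TG libraries and in no DRG library. The ratios of the other 7 members to Trpv1 overlapped between ganglia. Set against the summed neuronal markers of the same library, Trpm8 had 45.3 to 70.8 CPM per 1000 CPM of neuronal markers in TG and 5.61 to 13.8 in DRG. On that scale Trpv1 overlapped between ganglia, as it did in CPM, with 8.06 to 17.2 in TG and 9.85 to 27.2 in DRG.

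**Figure D3:**
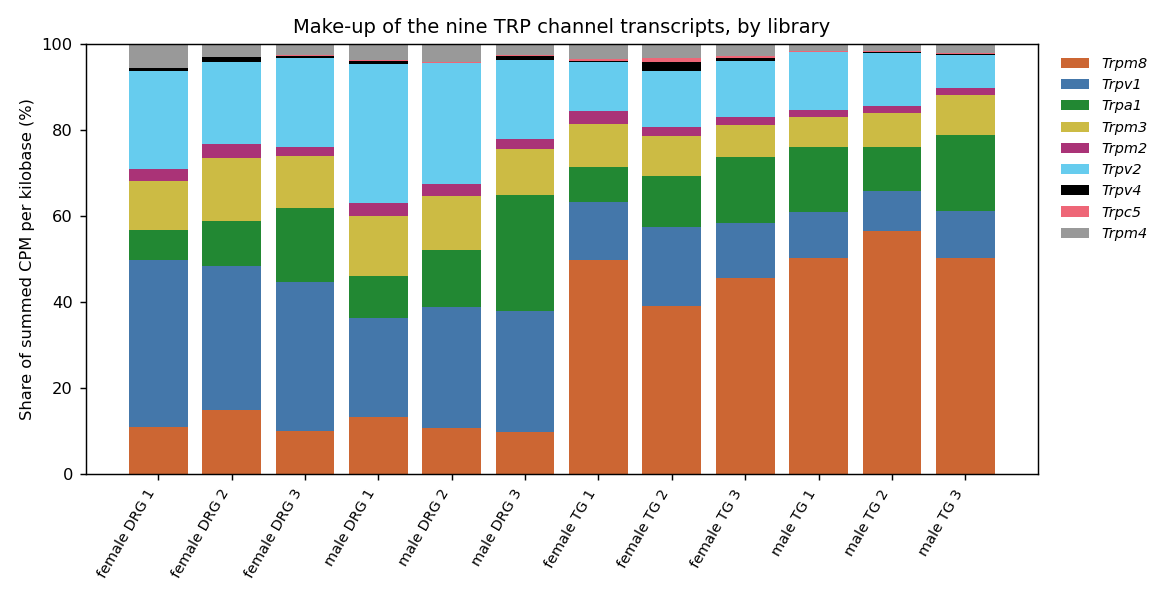
Stacked bars give, for each of the 12 libraries on the x axis, the share in percent that each of the 9 genes held of their summed CPM per kilobase. Trpm8 takes 39.1 to 56.5% in the TG libraries and 9.78 to 14.9% in the DRG libraries, and Trpv1 9.2 to 18.3% and 23 to 38.7%.

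Markers of neuron classes were set beside these values. Peptidergic nociceptor genes, which mark the class in which TRPV1 is well known, summed to 1066 to 2885 CPM in TG and 1824 to 4280 CPM in DRG, and 0 of 5 passed the test, with a median log2 fold change of -0.37. Calca, which encodes CGRP, had a log2 fold change of -0.69 (adjusted p = 0.213). Of 4 non-peptidergic genes 1 passed, Mrgprd, with 149 ± 17.8 CPM (SD, n = 6) in TG against 255 ± 51 CPM (SD, n = 6) in DRG and a log2 fold change of -0.78 (adjusted p = 0.0307). Among 5 A-fibre genes none passed. Pvalb, a marker of proprioceptors, had -1.10 (adjusted p = 0.175) and Ntrk3, the receptor of neurotrophin 3, -0.20 (adjusted p = 0.885). The part of these classes in the difference of Trpv1 was not tested.

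The other 19 genes of the TRP family were read in the same libraries. Of these, 13 passed the filter on low counts, and 5, namely Trpm1, Trpv5, Trpv6, Mcoln3 and Pkd2l1, had at most 3 counts in every library. Among the highest by mean CPM per kilobase over the 12 libraries were the lysosomal channel Mcoln1 (23.1), Trpm7 (15.9), Trpc6 (15.1) and Trpc1 (11). None of the 13 was called higher in TG and 1 was called higher in DRG, with a median log2 fold change of -0.08. That gene was Trpc6, a channel opened by diacylglycerol, with 28.5 ± 11.3 CPM (SD, n = 6) in TG against 56.2 ± 14 CPM (SD, n = 6) in DRG, a difference of -1.02 on the log2 scale (SE 0.21, adjusted p = 0.0221). Trpc1 had 0.88 (SE 0.21, adjusted p = 0.0585), and its TG range of 31.8 to 53.5 CPM lay above its DRG range of 14.9 to 29.1 CPM. Mcoln1 had 0.20 and Trpm7 -0.11, and neither passed.

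None of the genes listed for acting on TRP channels passed the test between ganglia. The list held receptors, kinases, phospholipases, G proteins and accessory proteins that sensitise or traffic the channels, and 0 of the 16 tested of 17 passed, with a median log2 fold change of -0.09. The smallest p belonged to Plcb3, a phospholipase C that couples itch and inflammatory receptors to TRP channels, at -0.57 (SE 0.18, adjusted p = 0.216), and to Gnaq, the G protein subunit that activates it, at -0.48 (SE 0.17, adjusted p = 0.295). Pirt, a membrane protein that binds TRPV1 and TRPM8, ranged from 411 to 623 CPM in TG and from 373 to 944 CPM in DRG, with a log2 fold change of -0.25 (adjusted p = 0.888). It is named here after its values were seen.

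Of 12 other genes tied to temperature sensing, 1 passed and was higher in TG. This was Kcna1, a potassium channel subunit known to restrain the firing of cold-sensitive neurons, with 1012 ± 245 CPM (SD, n = 6) in TG against 533 ± 56.4 CPM (SD, n = 6) in DRG. Its TG range of 803 to 1369 CPM lay above its DRG range of 488 to 642 CPM, and the log2 fold change was 0.92 (SE 0.18, adjusted p = 0.0132). The median of the list was -0.10.

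The genes most like 3 of the members over the 12 libraries were found by Pearson's r of log2 CPM among 11437 genes with a mean above 5 CPM, as a description, since the points fall into 2 ganglia. For Trpm8 they were Ralgapa2 (r = 0.956), Slc24a2 (0.950) and Large (0.948), which encode a regulator of Ral proteins, a sodium, calcium and potassium exchanger, and a glycosyltransferase of dystroglycan. Slc24a2 averaged 1147 ± 213 CPM (SD, n = 6) in TG against 552 ± 71.4 CPM (SD, n = 6) in DRG. For Trpv1 they were Plxnc1 (0.931), a semaphorin receptor, Klf7 (0.930), a transcription factor, and Fam102b (0.923). For Trpa1 they were Papolg (0.963), a poly(A) polymerase, Lrrn1 (0.945) and Osbpl9 (0.941), and the means of these 3 were close in the ganglia. The r between Trpm8 and Trpv1 themselves was -0.822 and that between Trpm8 and Trpa1 0.433.

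The study asked which genes differ between the sexes, and the members were compared in each ganglion. No member passed an adjusted p under 0.05 in either ganglion with edgeR, nor did any with DESeq2. DESeq2 set no adjusted p for Trpv4 and Trpc5 in TG or for Trpm2, Trpm4, Trpv4 and Trpc5 in DRG. Of all genes tested, 5 of 14009 passed in TG and 5 of 13963 in DRG with edgeR, and 817 and 348 with DESeq2. With edgeR nearly all genes failed to pass, so that result does not set the members apart. At an unadjusted threshold of 0.05, 2 members passed in TG and 0 in DRG, where 20.7% and 11.8% of all genes did. By criteria modelled on the study's (fold change above 2, unadjusted threshold of 0.05, and a mean above 1 CPM in the higher sex in place of RPKM), 1 member, Trpv4, was female-selective in TG, where 7.41% of genes tested met the criteria in either direction, and 0 did in DRG, where 4.97% met them. The study itself reports Trpv4 as higher in female TG neuronal fractions. The call here repeats that one on the study's own libraries with like criteria, and is not a second finding.

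Markers of neurons and of other cell types were also compared between the sexes. In TG, at the unadjusted threshold of 0.05, 6 of 10 satellite glia and Schwann cell genes passed (median log2 fold change, female over male, 0.54). So did 3 of 9 macrophage genes (0.61), 2 of 7 endothelial genes (0.23) and 3 of 6 fibroblast genes (0.85). Over all genes tested in TG 20.7% passed, with a median of 0.05. Female and male TG libraries had summed levels of 5566 to 8325 and 5752 to 6694 CPM for the glial genes. The sums were 320 to 560 and 174 to 338 CPM for macrophages, 386 to 623 and 318 to 446 CPM for endothelium, and 1030 to 1676 and 618 to 1405 CPM for fibroblasts, and each pair overlapped. In DRG 2 of 10 glial genes passed (median 0.25), 2 of 9 macrophage genes (0.53), 6 of 7 endothelial genes (1.09) and 3 of 6 fibroblast genes (0.70). Over all genes tested in DRG 11.8% passed, with a median of 0.02. Endothelial genes summed to 334 to 647 CPM in female and 199 to 348 CPM in male DRG. Of the 10 neuronal genes 3 passed in TG (median 0.09) and 2 in DRG (median -0.12). Their sums were 5274 to 7416 CPM in female and 5376 to 7569 CPM in male TG. In DRG the neuronal sums were 4937 to 8854 CPM in females and 7315 to 8867 CPM in males. Of 5 peptidergic nociceptor genes 3 passed in TG (median -0.25) and 2 in DRG (median -0.20). Their sums were 1066 to 1882 CPM in female and 1529 to 2885 CPM in male TG. In DRG they were 1824 to 2018 CPM in females and 2582 to 4280 CPM in males. Of 4 non-peptidergic genes 1 passed in TG and 0 in DRG, and 0 of 5 A-fibre genes passed in either. The part of neuronal content, of neuron classes and of these other cells in the sex differences of the members was not tested.

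Trpv4 had 1.67, 9.16 and 4.65 CPM in female TG and 0.091, 1.45 and 0.982 CPM in male TG. The sexes did not overlap, a pattern that was not counted over all genes, and the male values rest on 1, 21 and 10 counts. The log2 fold change was 2.65 (SE 1.04, adjusted p = 0.201), and 1.96 standard errors to either side spanned ratios of 1.53 to 25.6. The criteria were no longer met without female TG 2, without male TG 1 or without male TG 3, where the log2 fold changes were 1.89, 2.13 and 2.76 and the unadjusted threshold was missed. They were also not met after a correction for GC content and length, at 1.98, but were met when the replicate block was added to that correction, at 2.20. In DRG the log2 fold change of Trpv4 was 0.40 (SE 1.45).

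Trpm4 had 23.7, 21.0 and 25.3 CPM in female TG and 13.6, 13.0 and 16.5 CPM in male TG, again without overlap. The log2 fold change was 0.75 (SE 0.28, adjusted p = 0.191). After the correction for GC content and length it was 0.11. The exons of Trpm4 hold 57.4% G and C, and reads outside genes made up 43.5 to 49.1% in the female and 37.6 to 47.9% in the male TG libraries, whose part in the result was not tested. In DRG the values were 24.5, 14.9 and 16.3 CPM in females and 17.0, 20.4 and 16.5 CPM in males, a difference of 0.06 on the log2 scale (SE 0.38).

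Among the called members of the ganglion comparison, Trpm8 had 319 ± 76.9 CPM in female TG and 413 ± 43.7 CPM in male TG (SD, n = 3 each), with overlapping ranges and a log2 fold change, female over male, of -0.33 (SE 0.23, adjusted p = 0.429). In DRG it was 0.09 (SE 0.29), with an interval of 0.722 to 1.57 for the ratio. Trpv1 was higher in all 3 female than in all 3 male TG libraries, at 83.5 ± 10.5 against 65.5 ± 3.94 CPM (SD, n = 3 each), but with a log2 fold change of 0.40 (SE 0.22) it did not pass (adjusted p = 0.324). In DRG the sexes overlapped and the log2 fold change of Trpv1 was 0.41 (SE 0.29, adjusted p = 0.615).

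The remaining sex differences had larger errors or smaller sizes. In TG the log2 fold changes were -0.35 (SE 0.33) for Trpa1, 0.02 (SE 0.22) for Trpm3, 0.28 (SE 0.27) for Trpm2, 0.05 (SE 0.28) for Trpv2 and 1.39 (SE 0.83) for Trpc5. In DRG they were -0.55 (SE 0.52) for Trpa1, 0.06 (SE 0.27) for Trpm3, -0.06 (SE 0.33) for Trpm2, -0.29 (SE 0.27) for Trpv2 and -1.08 (SE 2.08) for Trpc5. In TG, Trpa1 depended on female TG 3, without which the log2 fold change was -0.84 (adjusted p = 0.0376 by edgeR). Without that library the number of all genes meeting the criteria also rose, from 1038 to 2526. The share of all genes past the adjusted threshold in that fit is not given here. Trpa1 in TG depended as well on the correction for GC content and length, after which it was -0.0012, or -0.05 with the replicate block added. With only the libraries numbered 1 and 2, chosen after the values were seen, 4 members passed an adjusted p under 0.05 in TG, with log2 fold changes of -0.60 for Trpm8, -0.68 for Trpa1, 2.76 for Trpv4 and 0.76 for Trpm4, while 44.1% of all genes tested passed the same threshold in those libraries. Of the members, 4 of 9 is a share close to that background.

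**Figure D4:**
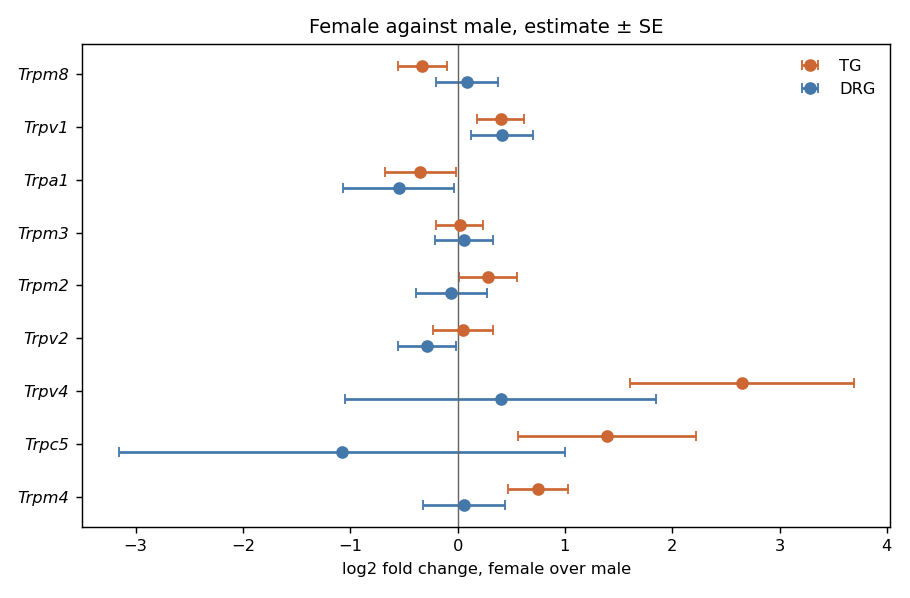
Points with bars are the log2 fold change of female over male ± SE for the 9 genes, in TG and in DRG, from the 6 libraries of each ganglion. Trpv4 in TG lies at 2.65 and Trpm4 in TG at 0.75, and no point passed an adjusted p under 0.05.

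Whether the sex difference itself differed between the ganglia was tested as an interaction over all 12 libraries. No member passed, each having an adjusted p of 0.9998. The interaction was 0.65 (SE 0.46) for Trpm4, 2.17 (SE 1.80) for Trpv4 and -0.46 (SE 0.35) for Trpm8 on the log2 scale. Over all genes tested, 0 passed with edgeR and 0 with DESeq2, and 292 and 388 genes were below an unadjusted threshold of 0.05.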

How the data were processed

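Whole-number counts per gene, with 5 summary lines per file, were deposited by the authors for 12 libraries. The authors removed ribosomal RNA, made stranded libraries, aligned single reads with TopHat2 to mm9 and counted with HTSeq, per the labels and the methods of the study. Neither the annotation nor the strand setting is given in the sources used here. Summary lines were left out of library totals. Reads outside genes made up 37.6 to 50.4% of the reads outside and in genes together. Ambiguous reads made up 0.262 to 0.362% of the ambiguous reads and reads in genes together. Limits from counts cover counting error only.

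TG was compared with DRG in 1 model that fitted the 4 group means over all 12 libraries, and the sexes in the 6 libraries of each ganglion, with edgeR 4.0.16 (quasi-likelihood F-test, filterByExpr, TMM factors, Benjamini-Hochberg adjustment over all genes tested) in R 4.3.3. No replicate block was used. SE is the log2 fold change divided by the square root of F. DESeq2 1.42.0 and limma 3.58.1 were alternatives, beside other scalings, no filter, GC and length offsets, a replicate block and leaving out libraries. The code was tested on simulated data. Positions, lengths and GC came from GENCODE vM1 (NCBIM37), which matched 21701 of 22609 genes. The members, lists and rules were chosen with earlier results of these data known. The text names the 9 members, of each other list the genes with an adjusted p under 0.05 between ganglia or, with none, the 2 with the smallest p, the 5 other TRP genes with the highest CPM per kilobase, and the 3 genes most like Trpm8, Trpv1 and Trpa1. Some genes that this rule names are not reported here.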

Additional observations from a re-analysis of the deposited data

How the results depend on the processing

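Trpm8 kept its direction and its call in all 22 alternatives of the ganglion comparison (log2 fold change 2.50 to 2.74), and Trpv1 kept its direction in all and its call in all 10 that did not leave out a single library. The number of members called was 2, 3 in the libraries numbered 1 and 2, and 1 to 2 with single libraries left out. The number of all genes called, 143, was 333 with DESeq2, 218 without the filter, 344 without female DRG 1 and female TG 3, 814 in the libraries numbered 1 and 2 and 77 to 231 with single libraries left out. In TG the criteria were met by 1038 genes, by 294 with GC-length correction, by 3480 in libraries numbered 1 and 2, and by 584 to 2526 with single libraries left out. The members meeting them were 1, 0 with GC-length correction and 0 to 1 with single libraries left out, and members past the adjusted threshold were 0 to 1 in those fits and 4 in libraries numbered 1 and 2. In DRG 694 genes met the criteria, 452 with GC-length correction, 1774 in libraries numbered 1 and 2 and 377 to 1585 with single libraries left out.

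Libraries of 1 number were not shown to be paired. Correlations of their deviations ran from 0.028 to 0.216 between ganglia of 1 sex, from 0.032 to 0.168 between the sexes in DRG and from -0.098 to 0.010 in TG, and 4 of 6 libraries in each sex correlated best with their own number between ganglia, against 6 of 6 between the sexes in DRG and 0 of 6 in TG. With the replicate block 562 genes were called between ganglia, and 511 with the block and GC-length correction, with 2 members called in both. With the block and GC-length correction 265 genes met the criteria in TG and 378 in DRG.

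The sign turned in 27 of 198 alternative values between ganglia, 14 of 126 in TG and 17 of 126 in DRG, none of them in a comparison that the member had passed, and the cause was not tested. Between ganglia Trpm3 was -0.04 with DESeq2, -0.03 with median-ratio scaling, -0.08 with GC-length correction, with or without the block, -0.10 without the pair of libraries and -0.08 to 0.06 with single libraries left out. Trpm4 was -0.03 with DESeq2 and median-ratio scaling, -0.14 with GC-length correction, -0.18 with the block added, -0.16 in libraries numbered 1 and 2 and -0.06 to 0.13 with single libraries left out. Trpm2 was -0.04 and -0.06 with GC-length correction without and with the block. Trpv4 was 0.07 in libraries numbered 1 and 2 and -0.67 to 0.18 with single libraries left out. In the sex comparison of TG, Trpm3 was -6.7e-05 with DESeq2, -8.1e-05 with median-ratio scaling, -0.04 with GC-length correction with or without the block and -0.07 to 0.11 with single libraries left out. GC-length correction without and with the block gave -0.22 and -0.25 for Trpm2 and -0.29 and -0.36 for Trpv2, and Trpv2 was -0.42 in libraries numbered 1 and 2 and -0.20 to 0.20 with single libraries left out. In DRG the same pair of settings gave -0.10 and -0.11 for Trpm3 and -0.29 and -0.32 for Trpm4. Libraries numbered 1 and 2 gave -0.0023 for Trpm3 and 0.06 for Trpm2, and library totals gave 0.12 for Trpm2. With single libraries left out the ranges in DRG were -0.05 to 0.22 for Trpm8, -1.17 to 0.26 for Trpa1, -0.06 to 0.22 for Trpm3, -0.19 to 0.02 for Trpm2, -0.18 to 1.45 for Trpv4 and -0.20 to 0.20 for Trpm4. Scaling by library totals moved the median of all genes to 0.16 in TG and 0.19 in DRG in the sex comparisons, from 0.05 and 0.02. All 18 mean levels of the members moved by less than 1 SD with library totals, and 6 of 18 levels per kilobase moved by more with merged exons, a choice added after the data were seen.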
